A study of Mus musculus with 33 samples.

Results

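The genes described here are 8 long noncoding RNAs that carry small nucleolar RNAs (snoRNAs) in their introns, namely *Snhg1*, *Snhg3*, *Snhg5*, *Snhg6*, *Snhg8*, *Snhg9*, *Snhg12* and *Gas5*. They were taken by symbol from a table of 16336 genes, and all 8 were listed. The set was chosen by the level of *Snhg9*, which was strongly higher in the mutant clones than in wild-type cells on day 8, so that difference is given below as a description and was not tested. RNA was measured in 33 libraries from E14Tg2a, a wild-type mouse embryonic stem (ES) cell line of 129/Ola origin, and from 2 E14Tg2a-derived clones, ΔK9.1 and ΔK9.2, in which a region marked by trimethylated histone H3 lysine 9 upstream of *Nanog* was deleted on both alleles. Cells were sampled undifferentiated in serum and LIF (day 0) and after 4, 6 and 8 days as embryoid bodies (EBs) in serum, and each of the 12 groups of line and day held 3 libraries, except day 6 with 2 per line. Per the study's methods, the aggregates were in suspension up to day 4 and were then plated on gelatin, so days 6 and 8 are attached outgrowths, and time after day 4 cannot be told apart from that change of culture. The wild type is a single line and the deletion is represented by 2 clones, so a difference of 1 clone from E14Tg2a cannot be told apart from a difference between clones.

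snoRNAs guide the chemical modification of ribosomal RNA and a few also help to cut its precursor. In vertebrates most are released from introns. Some hosts encode proteins, often of ribosomes or translation, while others, such as the 8 genes here, have spliced exons with little or no known coding use. Many host transcripts start with a pyrimidine tract and are removed by nonsense-mediated decay once ribosomes reach their short reading frames, so the level of the spliced RNA need not follow the amount of snoRNA made. *Gas5* was first known as a transcript that accumulates in growth-arrested cells.

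Expression is given as TPM, a transcript level that the authors scaled for transcript length and library total. Tests were made with limma on log2(TPM + 1), and a gene passed at a Benjamini-Hochberg adjusted p under 0.05 over all genes tested, 14504 on day 0 and 16336 otherwise. Differences between groups are on that log2 scale, with their standard error (SE), and understate the change of weakly expressed genes. The listed TPM summed to between 994284 and 998266 in each library, and 12903 to 13905 genes reached 1 TPM. The depth of each library is unknown from these values. EBs mix cell types, and in such bulk samples fewer cells of a type and less RNA per cell cannot be told apart.

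7 of the 8 hosts were found at a clear level in every library. Averaged over the 33 libraries, *Snhg1*, the host of *Snord22*, was the most abundant at 332 TPM. It was followed by *Snhg8*, the host of *Snora24*, at 195 TPM. *Snhg3*, which holds *Snora73a* and *Snora73b*, *Gas5* with 9 annotated small RNAs, *Snhg5* with *Snord50a* and *Snord50b*, and *Snhg12* lay close together at 115, 108, 104 and 96.5 TPM. *Snhg6*, the host of *Snord87*, averaged 56.5 TPM. *Snhg9*, the host of *Snora78*, had the lowest mean at 35.6 TPM, but ranged from 0 to 153 TPM. Among the other 7, the highest library exceeded the lowest by 2.37-fold (*Gas5*) to 3.52-fold (*Snhg6*).

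**Figure D1:**
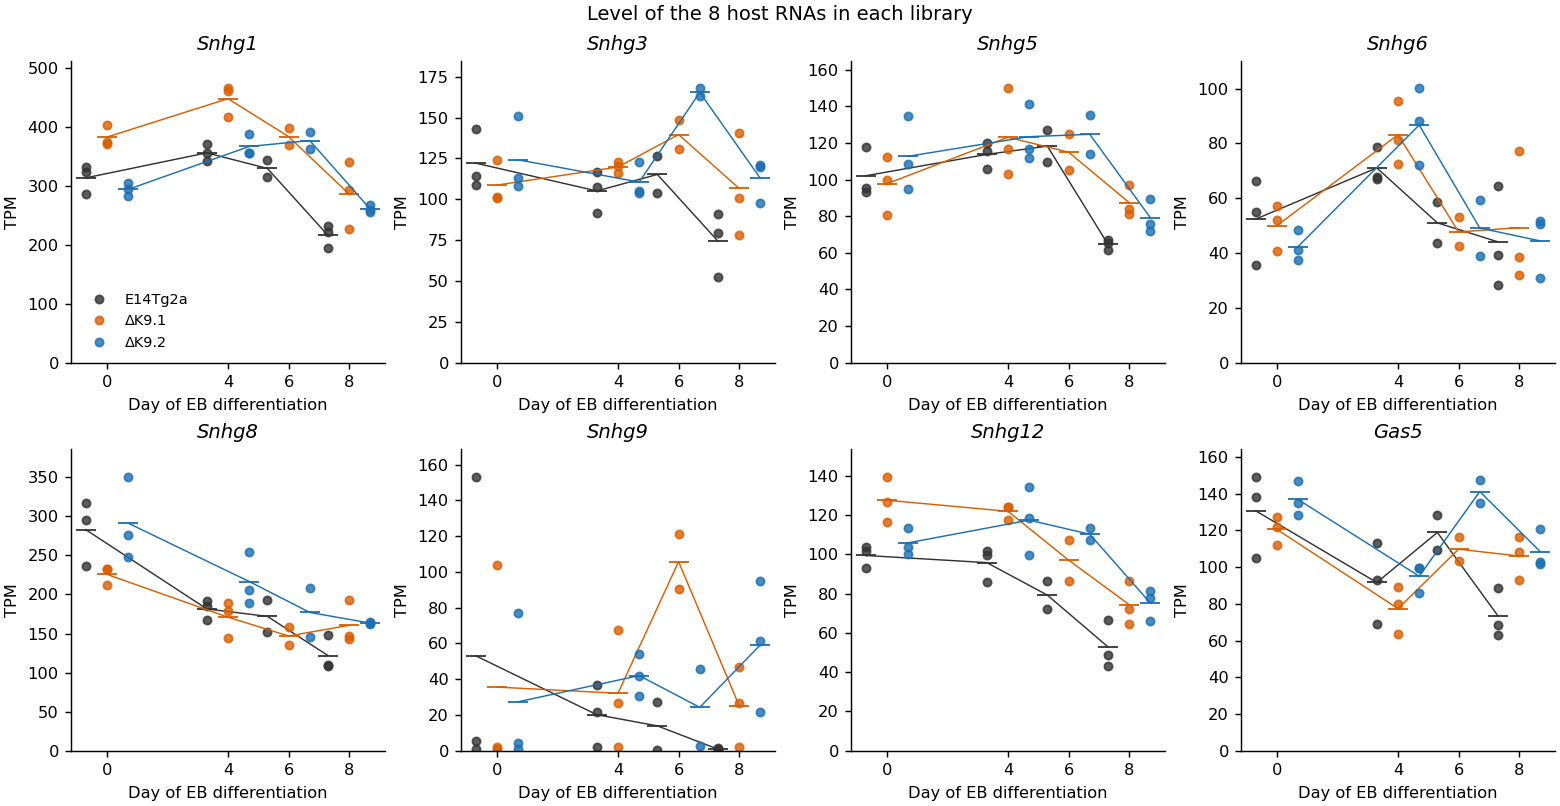
Level in TPM (linear vertical axes from 0) of each of the 8 host RNAs against day of EB differentiation. Points are single libraries, bars joined by lines are means, and E14Tg2a is black, ΔK9.1 orange and ΔK9.2 blue, set side by side within a day. *Snhg8* lay lowest in E14Tg2a on day 8, while *Snhg9* ran from 0 to 153 TPM with wide gaps between libraries of the same group.

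*Snhg9* differs from the others in its gene model. In GENCODE M21 on mm10 it occupies chr17:24719531-24719965 on the minus strand, is classed as antisense, and has a single transcript of 183 bases in 2 exons of 106 and 77 bases. It lies inside the annotated span of *Rps2* (chr17:24718116-24721929, plus strand), which encodes a protein of the small ribosomal subunit, and 14 bases of its first exon lie opposite *Rps2* exons. The RefSeq starts of the divergent pair are separated by 97 bases. *Snora78* lies in the *Snhg9* intron and is not among the genes listed in the table. The transcript is shown because its length sets it apart from the other members, with the first exon in lower case and the second in capitals, 5′ to 3′ (GENCODE M21).
Snhg9: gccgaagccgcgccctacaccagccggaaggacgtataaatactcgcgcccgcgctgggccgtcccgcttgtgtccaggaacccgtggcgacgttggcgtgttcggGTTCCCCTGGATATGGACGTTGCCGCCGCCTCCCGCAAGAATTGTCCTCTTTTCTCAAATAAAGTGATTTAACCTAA

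The other 7 genes have between 3 (*Snhg8*) and 25 (*Gas5*) annotated transcripts, and their longest ones run from 581 bases (*Snhg3*) to 2728 bases (*Snhg1*). *Snhg1* lies at chr19:8723475-8726443 (plus strand), *Snhg3* at chr4:132348014-132353686 (minus), *Snhg5* at chr9:88521050-88522929 (minus) and *Snhg6* at chr1:9941959-9944118 (minus). *Snhg8* lies at chr3:123507552-123508404 (minus), *Snhg12* at chr4:132308623-132311024 (plus) and *Gas5* at chr1:161034422-161038539 (plus).

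Windows from 40 bases before to 40 bases after the RefSeq start (GRCm38.p6) are printed below. They are shown because 6 of these genes were lower on day 8 than on day 0 in E14Tg2a. Pyrimidine tracts at the start are also a known feature of snoRNA hosts. 7 of the 8 genes matched, *Gas5* with 2 starts, and *Snhg6* did not. Capitals mark runs of at least 6 C or T letters that touch the 20 bases on either side of the start, and the letters TATAAA anywhere in the window.
Snhg1: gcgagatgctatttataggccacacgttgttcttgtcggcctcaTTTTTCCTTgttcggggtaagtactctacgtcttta
Snhg3: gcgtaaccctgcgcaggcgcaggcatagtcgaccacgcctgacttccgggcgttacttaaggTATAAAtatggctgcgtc
Snhg5: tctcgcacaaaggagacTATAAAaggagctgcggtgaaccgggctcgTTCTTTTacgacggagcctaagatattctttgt
Snhg8: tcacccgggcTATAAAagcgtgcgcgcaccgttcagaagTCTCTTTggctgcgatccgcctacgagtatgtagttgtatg
Snhg9: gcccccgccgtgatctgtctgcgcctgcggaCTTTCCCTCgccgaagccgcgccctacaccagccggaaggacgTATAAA
Snhg12: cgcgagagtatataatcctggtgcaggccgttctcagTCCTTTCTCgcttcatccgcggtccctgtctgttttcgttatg
Gas5, first start: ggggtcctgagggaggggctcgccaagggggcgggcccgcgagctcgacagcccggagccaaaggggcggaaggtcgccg
Gas5, second start: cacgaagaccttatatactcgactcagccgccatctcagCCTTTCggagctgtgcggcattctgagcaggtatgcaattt

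A run of at least 6 C or T letters within 20 bases of the start was present on the sense strand in 6 of these 8 windows, against 37.5% of all 32851 promoter entries. The opposite-strand equivalent, a run of A or G letters, was present in 2 of 8 windows and in 39.996% of all entries. TATAAA occurred on the sense strand in 4 windows, against 2.92% of all entries, and its reverse complement TTTATA in 1 window, against 1.52%. It began 23 bases before the start in *Snhg5* and 30 bases before it in *Snhg8*. In *Snhg3* and *Snhg9* it began at base 23 and base 35 of the annotated transcript, counting the start as base 1. These matches describe letters and not sites of binding.

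In E14Tg2a cells, between day 0 and day 8, 6 of the 7 hosts other than *Snhg9* fell, with a median difference of -0.73 over the 7, while the median of all genes was 0.05. Of all genes, 58.3% passed in this comparison with 32.1% higher and 26.2% lower on day 8. *Snhg8* read 236, 317 and 296 TPM in the 3 libraries of day 0 and 110, 108 and 148 TPM in the 3 of day 8. The 2 sets of libraries did not overlap, and the difference of -1.21 (SE 0.16, adjusted p = 5.37e-07) was the largest of the 7.

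*Snhg12*, a host of *Snora16a* and *Snora61* among others, read 93.1, 102 and 104 TPM on day 0 and 48.9, 43.1 and 66.8 TPM on day 8 in E14Tg2a, a difference of -0.92 (SE 0.14, adjusted p = 2.84e-06). *Gas5* went from 105, 138 and 149 TPM to 63.0, 68.6 and 88.8 TPM, a difference of -0.82 (SE 0.16, adjusted p = 8.23e-05). In both genes every day 8 library lay below every day 0 library, an order that 27.3% of all genes had. *Snhg3* fell by 0.73 (SE 0.18, adjusted p = 0.00127), from 114, 143 and 109 TPM to 79.4, 52.6 and 91.2 TPM. *Snhg5* fell by 0.64 (SE 0.15, adjusted p = 0.00052), from 93.0, 95.6 and 117 TPM to 67.2, 61.3 and 65.3 TPM. *Snhg1* fell by 0.54 (SE 0.10, adjusted p = 6.29e-05), from 286, 323 and 332 TPM to 222, 194 and 233 TPM. In these 3 genes as well all day 8 libraries were lower, so that 6 of the 7 hosts had the order that 27.3% of all genes had. *Snhg6* alone did not pass, at 52.4 ± 15.6 TPM on day 0 and 44.1 ± 18.5 TPM on day 8 (SD, n = 3), a difference of -0.28 (SE 0.29, adjusted p = 0.426) with overlapping libraries.

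Early in the E14Tg2a course only *Snhg8* and *Gas5* passed. On day 4 against day 0 they fell by 0.63 (SE 0.16, adjusted p = 0.00503) and 0.52 (SE 0.16, adjusted p = 0.0162), in a comparison where 26.2% of all genes passed, 10.4% higher and 15.9% lower. *Gas5* lost this call after a rescaling by the median ratio to the average library (-0.44, adjusted p = 0.0504), in a fit on the compared libraries alone (adjusted p = 0.0990) and when replicate 2 or 3 of day 0 or replicate 1 of day 4 was left out, and only *Snhg8* then passed. Between day 4 and day 6 none of the 8 passed in limma, 1 (*Gas5*) had an unadjusted p under 0.05, and 24.6% of all genes passed. Leaving out replicate 3 of day 4 gave 1 host that passed, upward. Between day 6 and day 8, 6 of 7 fell, by 0.50 (*Snhg8*) to 0.86 (*Snhg5*), with a median of -0.61 against 0.05 for all genes, 25.7% of which passed, 16.4% higher and 9.3% lower. This last count rested in part on 1 of the 2 day 6 libraries: without replicate 3 of day 6, 2 of the 7 passed, and a fit on the compared libraries alone gave 3.

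As the mean of both clones, 5 of 7 hosts were lower on day 8 than on day 0, with a median difference of -0.31 against -0.01 for all genes, of which 63.1% passed, 31% higher and 32.1% lower. *Snhg8* fell by 0.66 (SE 0.11, adjusted p = 1.76e-05), *Snhg12* by 0.63 (SE 0.10, adjusted p = 3.12e-06) and *Snhg5* by 0.32 (SE 0.10, adjusted p = 0.00863). *Snhg1* fell by 0.31 (SE 0.07, adjusted p = 0.000581) and *Gas5* by 0.26 (SE 0.11, adjusted p = 0.0439). *Snhg3*, with a difference of -0.09 (SE 0.13, adjusted p = 0.546), and *Snhg6*, with -0.04 (SE 0.20, adjusted p = 0.887), did not pass. The *Gas5* call was lost in 8 of the 12 fits that left out 1 library and after median ratio rescaling (adjusted p = 0.0669). Taken singly, ΔK9.1 had *Snhg1* (-0.44), *Snhg8* (-0.50) and *Snhg12* (-0.78) lower on day 8, and ΔK9.2 had *Snhg5* (-0.49), *Snhg8* (-0.82) and *Snhg12* (-0.49) lower, 3 of 7 in each clone against 24.8% and 26.7% of all genes. Whether the day 0 to day 8 change differed between E14Tg2a and the clones was not tested, since that difference contains the day 8 contrast by which the genes were chosen.

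The libraries behind these values were as follows for the most changed gene. *Snhg8* read 232, 212 and 233 TPM on day 0 and 146, 142 and 193 TPM on day 8 in ΔK9.1, and 351, 276 and 247 TPM on day 0 and 162, 165 and 163 TPM on day 8 in ΔK9.2. In each clone all day 8 libraries were below all day 0 libraries, as they were for 27.3% of all genes in ΔK9.1 and 29.3% in ΔK9.2. *Snhg12* had the same order, with 127, 140 and 116 TPM falling to 64.5, 72.4 and 86.3 TPM in ΔK9.1 and 104, 114 and 100 TPM falling to 81.5, 66.3 and 77.8 TPM in ΔK9.2. The mean of *Gas5* was lower on day 4 than on days 0 and 6 in each line. In E14Tg2a it was 131 ± 23.2 TPM on day 0 and 91.7 ± 22.0 on day 4 (SD, n = 3), and 119 ± 13.7 on day 6 (SD, n = 2). In the clones its mean was 121 ± 7.84 TPM on day 0, 77.4 ± 13.1 on day 4, 110 ± 9.07 on day 6 (n = 2) and 106 ± 12.05 on day 8 in ΔK9.1 (SD, n = 3 where not stated), and 137 ± 9.34, 95.1 ± 8.10, 141 ± 8.65 and 108 ± 10.5 TPM on the same days in ΔK9.2.

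These intermediate steps passed in the mean of both clones. From day 0 to day 4, *Gas5* fell by 0.58 (SE 0.11, adjusted p = 0.000139) and *Snhg8* by 0.41 (SE 0.11, adjusted p = 0.00419), while *Snhg6* rose by 0.87 (SE 0.20, adjusted p = 0.00108) and *Snhg1* by 0.27 (SE 0.07, adjusted p = 0.0029). 47.3% of all genes passed here, 37.2% lower and 10.1% higher, and the median of all genes was -0.19. The same rescaling brought that median to -0.01, and 4 hosts then rose and 1 fell in place of 2 and 2, *Snhg8* having lost its call at -0.18 (adjusted p = 0.261). From day 4 to day 6, *Gas5* rose by 0.54 (SE 0.12, adjusted p = 0.00121) and *Snhg3* by 0.40 (SE 0.14, adjusted p = 0.028), and *Snhg6* fell by 0.81 (SE 0.23, adjusted p = 0.00582), with 43.5% of all genes passing, 27.7% higher and 15.8% lower. After the rescaling 1 host rose and 3 fell in this step, and *Snhg3* no longer passed (0.27, adjusted p = 0.185), a call that was also lost in 5 of the 10 fits that left out 1 library. The shares of all genes given for these steps are from the fit without rescaling. From day 6 to day 8, *Snhg5* (-0.52), *Snhg3* (-0.49), *Snhg1* (-0.49) and *Snhg12* (-0.47) fell, 4 of 7 against 32.3% of all genes passing, 21.7% higher and 10.6% lower.

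*Snhg6* thus had its highest mean on day 4 in the clones. In single clones the rise passed in ΔK9.2 (adjusted p = 0.00877) and not in ΔK9.1 (adjusted p = 0.0588), and the fall to day 6 passed in neither (adjusted p = 0.0880 in ΔK9.1 and 0.0530 in ΔK9.2). Its libraries read 81.3, 72.5 and 95.6 TPM in ΔK9.1 and 100.02, 72.0 and 88.1 TPM in ΔK9.2 on day 4, above every other clone library except 1 of ΔK9.1 on day 8 at 77.3 TPM. In E14Tg2a it also had its highest mean on day 4 (71.1 ± 6.57 TPM, n = 3), but neither the rise (0.47, SE 0.29, adjusted p = 0.238) nor the following difference (-0.48, SE 0.32, adjusted p = 0.288) passed. The test of the difference between clones and E14Tg2a in the day 0 to day 4 change gave 0.39 (SE 0.35, adjusted p = 0.802).

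Before differentiation, the clones were compared with E14Tg2a one at a time. In ΔK9.1, 2 of the 8 hosts were higher, in a comparison where 15.5% of all genes passed, 10.1% higher and 5.36% lower. *Snhg1* read 374, 403 and 371 TPM in ΔK9.1 against 286, 323 and 332 TPM in E14Tg2a (0.29, SE 0.07, adjusted p = 0.0306), and *Snhg12* read 127, 140 and 116 TPM against 93.1, 102 and 104 TPM (0.35, SE 0.09, adjusted p = 0.0275). In both genes the 3 ΔK9.1 libraries lay above the 3 E14Tg2a libraries, as did those of 22.1% of all genes. Both calls were lost after the median ratio rescaling (adjusted p = 0.19 and 0.0851), in the fit of all 33 libraries (0.0645 and 0.0977), and without replicate 1 or 2 of either line. Without replicate 3 of ΔK9.1 only *Snhg12* passed, and without replicate 3 of E14Tg2a only *Snhg1*. *Snhg8* went the other way without passing, at 232, 212 and 233 TPM in ΔK9.1 against 236, 317 and 296 TPM in E14Tg2a (-0.32, SE 0.14, adjusted p = 0.155).

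In ΔK9.2 none of the 8 passed in limma on day 0, none had an unadjusted p under 0.05, and 0.0827% of all genes passed. *Snhg1* read 295, 305 and 282 TPM there, overlapping the E14Tg2a libraries. Between the clones, *Snhg1* was higher in ΔK9.1 than in ΔK9.2 by 0.38 (SE 0.07, adjusted p = 0.0429), 1 host of 8 where 1.9% of all genes passed, 1% higher and 0.903% lower. That call was lost with any 1 of the 6 libraries left out and after the rescaling (adjusted p = 0.0937). Blocking on the replicate number, 2 hosts passed (*Snhg1* and *Snhg12*). On days 4 and 6 none of the 8 hosts passed between the clones in limma (0% and 0.00612% of all genes). There, 2 and 0 of the 8 had an unadjusted p under 0.05. On day 8 none of the 7 hosts other than *Snhg9* passed or had an unadjusted p under 0.05 (0% of all genes passed). *Snhg9* is left out on that day because its day 8 levels led to the choice of the set.

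On days 4 and 6 no host passed between the clones and E14Tg2a, and the contrast of day 8 was not tested. On day 4, 0 of 8 passed in limma, 2 (*Snhg1* and *Snhg12*) had an unadjusted p under 0.05, and 2.85% of all genes passed. On day 6, 0 of 8 passed, 2 (*Snhg3* and *Snhg12*) had an unadjusted p under 0.05, and 3.83% of all genes passed. The estimates on day 6 ran from -0.10 (*Snhg8*, SE 0.17) to 0.40 (*Snhg3*, SE 0.19) among the 7 hosts other than *Snhg9*. On that day every clone library of *Snhg1*, *Snhg3* and *Snhg12* was above both E14Tg2a libraries, and 12.8% of all genes shared that order with these few libraries. On days 0 and 4, with the libraries of both clones pooled, every host overlapped between clones and E14Tg2a, while 8.65% and 7.58% of genes did not. For the change from day 0 to day 4 or to day 6, no difference between clones and E14Tg2a passed for any host (0 of 8 in limma at an adjusted or unadjusted p under 0.05, against 0.0184% and 0.306% of all genes passing). The estimates on day 6 against day 0 reached 0.47 (SE 0.25) for *Snhg3* and 2.90 (SE 2.25) for *Snhg9*, and the lowest adjusted p of the 8 were 0.802 and 0.537.

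Few of the called differences were large. With a difference above 1 on the log2 scale also required, *Snhg8* in E14Tg2a on day 8 against day 0 was the only host called among the comparisons of days in E14Tg2a or in the mean of both clones and those between lines given above, and 26.9% of all genes were called there. In ΔK9.2 taken singly, *Snhg6* also rose by 1.01 (SE 0.29, adjusted p = 0.00877) from day 0 to day 4. In the other comparisons with called hosts, the share of all genes past both limits was 7.74% (day 4 against 0) and 9.26% (day 8 against 6) in E14Tg2a. In the clones it was 5.96% (day 4 against 0), 7.95% (day 6 against 4), 6.19% (day 8 against 6) and 21.1% (day 8 against 0), and on day 0 it was 2.19% for ΔK9.1 against E14Tg2a and 0.586% between the clones.

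**Figure D2:**
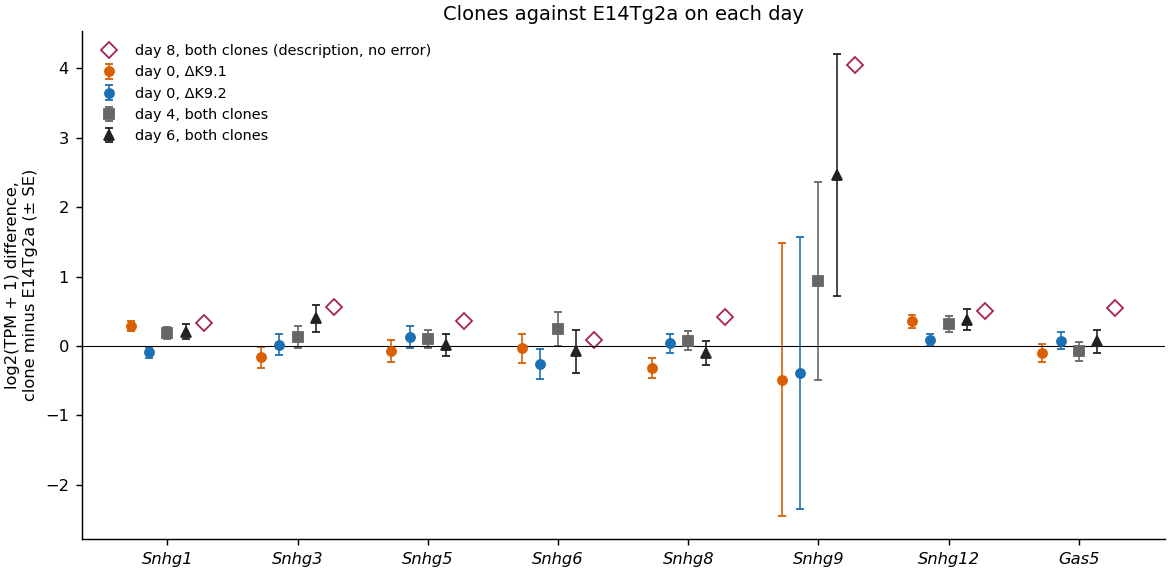
Difference in log2(TPM + 1) between clones and E14Tg2a for each host. Filled points with bars are limma estimates ± SE on day 0 (each clone), day 4 and day 6 (mean of both clones), and open diamonds are the day 8 differences, drawn without error because they led to the choice of the set. *Snhg9* stood at 4.04 on day 8, and its SE on the earlier days reached 1.42 to 1.96, while no other host had an SE above 0.31.

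The day 8 contrast itself is described without a test. All 8 hosts were higher in the mean of both clones, by 0.09 (*Snhg6*) to 0.57 (*Snhg3*) for 7 of them and by 4.04 for *Snhg9*, with a median of 0.46 against 0.00 for all genes. *Snhg5* read 84.0, 96.9 and 81.3 TPM in ΔK9.1 and 89.4, 75.9 and 72.1 TPM in ΔK9.2 against 67.2, 61.3 and 65.3 TPM in E14Tg2a, all 6 clone libraries above all 3 of E14Tg2a. *Gas5* was arranged in the same way, with 93.0 to 121 TPM in the 6 clone libraries against 63.0 to 88.8 TPM. Together with *Snhg9*, 3 of the 8 hosts had this order, which 5.44% of all genes had (13.4% did not overlap in either direction), and nothing is read from that count. *Snhg3* and *Snhg6* overlapped between the lines on day 8, as did *Snhg1*, *Snhg8* and *Snhg12*.

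*Snhg9* was not simply low in E14Tg2a and high in the clones. On day 8 it read 1.07, 0 and 1.52 TPM in E14Tg2a, 26.9, 2.05 and 46.6 TPM in ΔK9.1 and 94.8, 21.5 and 61.4 TPM in ΔK9.2. On day 0 it read 153, 5.17 and 0.893 TPM in E14Tg2a, 1.11, 104 and 1.99 TPM in ΔK9.1 and 1.03, 4.05 and 77.0 TPM in ΔK9.2. On day 0 each line thus had a single high library and a pair of low ones, and the highest value of the whole series was a wild-type library.

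On day 4 *Snhg9* read 2.36, 36.5 and 21.6 TPM in E14Tg2a, 26.9, 67.7 and 1.84 TPM in ΔK9.1 and 30.5, 41.6 and 54.0 TPM in ΔK9.2. On day 6 it read 0.633 and 27.2 TPM in E14Tg2a, 90.2 and 121 TPM in ΔK9.1 and 45.8 and 2.72 TPM in ΔK9.2. High and low libraries thus occurred within the same group in 8 of the 12 groups, the exceptions being E14Tg2a on day 8, ΔK9.1 on day 6 and ΔK9.2 on days 4 and 8. No library of the series lay between 5.17 and 21.5 TPM, with 14 libraries at or below the first value and 19 at or above the second. Where both values were above 0, the highest library of a group exceeded its lowest by 1.34-fold to 172-fold.

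Ordered by mean log2(TPM + 1), *Snhg9* was lowest in E14Tg2a on day 8 (0.79 ± 0.70, SD, n = 3) and next in E14Tg2a on day 6 (2.76 ± 2.90, n = 2), ΔK9.1 on day 0 (3.12 ± 3.12), ΔK9.2 on day 0 (3.21 ± 2.74) and E14Tg2a on day 0 (3.61 ± 3.29). It then went through ΔK9.2 on day 6 (3.72 ± 2.58, n = 2), E14Tg2a on day 4 (3.82 ± 1.84), ΔK9.1 on day 8 (3.99 ± 2.10) and ΔK9.1 on day 4 (4.14 ± 2.37). ΔK9.2 on day 4 (5.39 ± 0.40) and on day 8 (5.68 ± 1.08) and ΔK9.1 on day 6 (6.72 ± 0.30, n = 2) were highest. Every step between neighbours in this order was smaller than the larger SD of the groups it joined. Outside day 8 its estimates were -0.48 (SE 1.96, adjusted p = 0.893) for ΔK9.1 and -0.39 (SE 1.96, adjusted p = 0.973) for ΔK9.2 on day 0, 0.94 (SE 1.42, adjusted p = 0.832) on day 4 and 2.46 (SE 1.74, adjusted p = 0.523) on day 6, none of which passed.

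**Figure D3:**
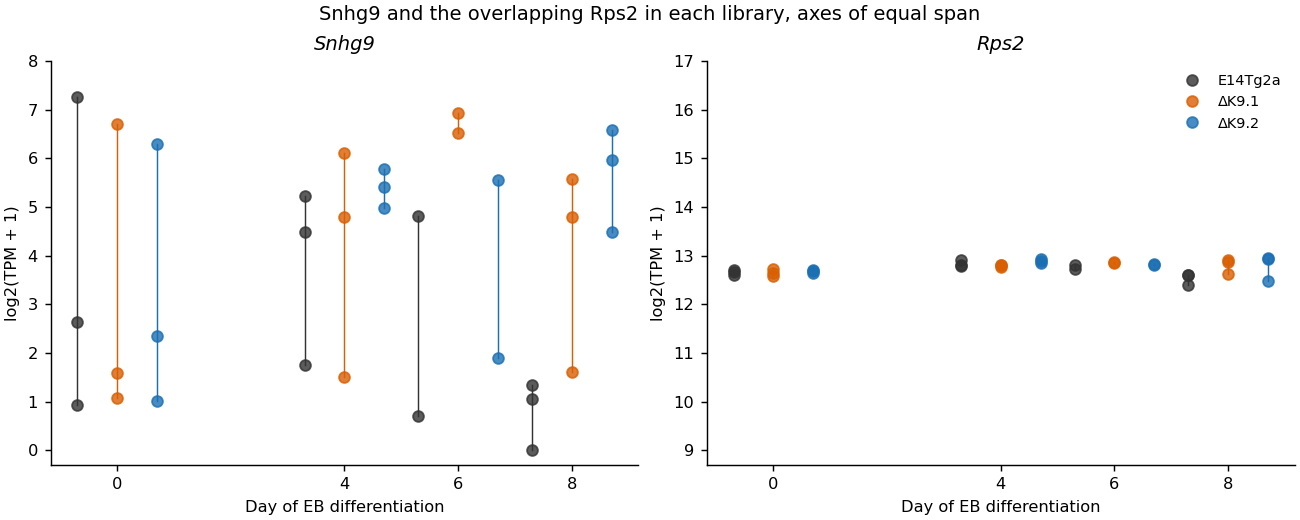
log2(TPM + 1) of *Snhg9* (left) and of the overlapping *Rps2* (right) against day, one point per library, with a line from the lowest to the highest library of each group. Colours are as in the plot of all hosts, and both axes span the same number of log2 units. *Snhg9* libraries of the same group were up to 172-fold apart, and *Rps2* ranged from 5370 to 7889 TPM over all libraries.

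The overlapping *Rps2* did not vary in this way. It read between 5370 and 7889 TPM in the 33 libraries, a 1.47-fold range, and passed in 1 comparison, the day 0 to day 4 change in the clones (0.18, adjusted p = 0.036). The libraries were strand-specific and were counted with strand by the authors. Within groups, the correlation of *Snhg9* with *Rps2* over the 33 libraries, each centred on its group, was r = 0.08, and with the other 7 hosts it ran from -0.18 (*Snhg8*) to 0.20 (*Snhg5*). These are given as descriptions, over libraries that share lines and days.

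The spread between libraries of the same group was next set against transcript length. The pooled SD of *Snhg9* within groups was 2.20, the 11th highest of 16336 genes. The other 7 hosts lay between 0.12 (*Snhg1*, rank 15399) and 0.38 (*Snhg6*, rank 2915). Of 12080 genes that reached a mean of 5 TPM in some group, 11968 had a length in GENCODE M21, which need not be the annotation behind the TPM, so the lengths used there may differ, that of *Snhg9* included. The median SD was 0.99 over the 80 of them whose longest transcript was under 200 bases, 0.52 over 291 genes from 200 to under 500 bases, 0.27 over 697 from 500 to under 1000 bases and 0.21 over 10900 of 1000 bases or more. All 11 genes with an SD at or above that of *Snhg9*, itself included, had a longest transcript under 500 bases, and 7 of them under 200 bases. *Snora73a*, inside *Snhg3*, is one of them, with an SD of 2.72. The part of transcript length in the day 8 difference of *Snhg9* was not tested.

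**Figure D4:**
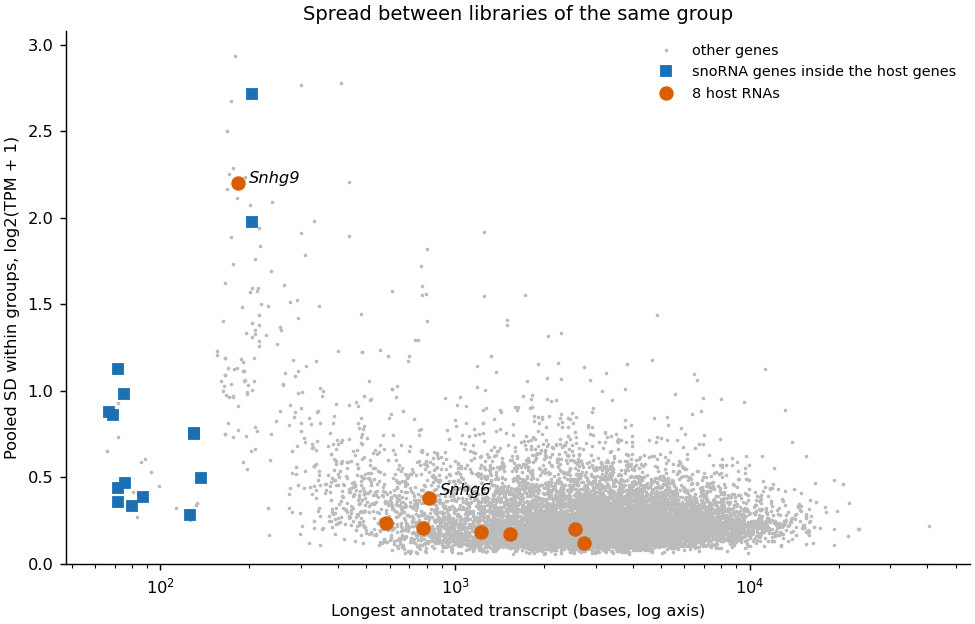
Pooled SD of log2(TPM + 1) between libraries of the same group against the longest annotated transcript in bases (log axis), for genes that reached a mean of 5 TPM in some group. Grey points are all such genes, orange circles the 8 hosts and blue squares the snoRNA genes inside them. *Snhg9*, with 183 bases and an SD of 2.20, stood among genes with short transcripts, and the other 7 hosts had an SD of 0.12 to 0.38.

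Over the 12 group means, the 7 hosts other than *Snhg9* were related to each other to varying degrees. Pearson's r among their 21 pairs ran from -0.45 (*Snhg6* and *Gas5*) to 0.87, with a median of 0.57, and *Snhg9* with each of them gave 0.04 to 0.55. Among 12073 genes of at least 5 TPM in some group, those whose group means were most like the average of the 7 included *Glt1d1* (r = 0.97), *Rpl30* (0.97), *Gm43558* (0.96) and *Prdx1* (0.96). The 5 most like *Snhg9* were *Strbp* (0.83), *Rps2-ps10* (0.83), *Tcfl5* (0.80), *Cacng7* (0.80) and *Rps2* (0.79). *Rps2-ps10* is named as a processed copy of *Rps2*, with group means of 1152 to 1549 TPM, and reads of the 2 may have been shared between them. These are likenesses over 12 points that share lines and days, taken from the 12079 or 12073 genes compared, and *Snhg9* group means carry the wide errors given above.

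Some of the snoRNA genes inside the hosts fell in E14Tg2a. Of 28 genes annotated as snoRNAs within the 8 hosts on the same strand, 16 were listed, 7 of them in *Snhg1* and 1 of 9 in *Gas5*. On day 8 against day 0 in E14Tg2a, 9 of the 16 fell and none rose (26.2% of all genes were lower), and in the clones 4 of 16 fell and none rose (32.1% lower). *Snord22* in *Snhg1* fell by 0.91 (SE 0.22, adjusted p = 0.000928) in E14Tg2a and differed by -0.30 (SE 0.15, adjusted p = 0.0904) in the clones. *Snord87* in *Snhg6* fell by 1.45 (SE 0.30, adjusted p = 0.000197) in E14Tg2a and by 0.52 (SE 0.21, adjusted p = 0.037) in the clones, where *Snhg6* itself did not pass in either. *Snora61* in *Snhg12* fell by 1.95 (SE 0.57, adjusted p = 0.00474) and 1.48 (SE 0.40, adjusted p = 0.00235). *Snord50a* and *Snord50b* in *Snhg5* passed in no comparison.

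The levels at these snoRNA genes were low. Their medians over the libraries lay between 1.58 TPM (*Snora61*) and 34.6 TPM (*Snord22*), and *Snora73a* was listed at 0 in 16 of 33 libraries and reached 147 TPM in another. None of the 16 passed between a clone and E14Tg2a on day 0, or between both clones and E14Tg2a on days 4 and 6, in limma. Mature snoRNAs have no poly(A) tail and the libraries were poly(A) selected, and which RNA was read at these genes was not tested.

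The nearest listed protein-coding genes changed in both directions. Of 16 such neighbours, 7 fell and 3 rose in E14Tg2a from day 0 to day 8, against 26.2% lower and 32.1% higher of all genes. *Slc3a2*, an amino acid transporter subunit whose annotated start lies 105 bases from that of *Snhg1* on the opposite strand, fell by 0.76 (SE 0.15, adjusted p = 0.000111). *Rcc1*, which overlaps *Snhg3* on the same strand and encodes the exchange factor of Ran, fell by 0.39 (SE 0.13, adjusted p = 0.0109). By contrast *Prss12*, a secreted protease gene 954 bases from *Snhg8* on the opposite strand, rose by 3.69 (SE 0.46, adjusted p = 2.03e-07) while *Snhg8* fell, and *Trnau1ap*, a selenocysteine tRNA-associated protein gene 738 bases from *Snhg12*, rose by 0.59 (SE 0.13, adjusted p = 0.00029) while *Snhg12* fell. *Prss12* was also the only neighbour to pass between clones and E14Tg2a during differentiation, at -2.33 (adjusted p = 0.0016) on day 4 and -1.75 (adjusted p = 0.042) on day 6.

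Most of the genes for the machinery that packages snoRNAs fell in E14Tg2a. Of 19 listed proteins of snoRNA particles and their assembly factors, 15 fell and 1 rose in E14Tg2a from day 0 to day 8 (median -0.67, with 26.2% of all genes lower), and 10 fell and 1 rose in the clones (median -0.28, with 32.1% of all genes lower). *Dkc1*, the pseudouridine synthase of H/ACA particles, fell by 1.58 (SE 0.12, adjusted p = 4.22e-11) in E14Tg2a and by 1.05 (SE 0.08, adjusted p = 4.42e-11) in the clones. *Rrp9*, a protein of the U3 particle, fell by 1.34 (SE 0.16, adjusted p = 1.22e-07) and 0.76 (SE 0.11, adjusted p = 2.61e-06). Between days 6 and 8, 15 of 19 fell in E14Tg2a (median -0.64, 9.3% of all genes lower) and 10 of 19 in the clones (median -0.30, 10.6% lower). Between days 4 and 6, 11 of 19 rose and none fell in the clones (median 0.31, 27.7% of all genes higher), and 0 of 19 passed in either direction in E14Tg2a (median 0.14, 24.6% of all genes passing). After median ratio rescaling 4 of 19 rose and none fell in that step in the clones (median 0.18). The share of all genes given for that step is from the fit without rescaling.

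Other snoRNA hosts changed in both directions. Of 13 further noncoding hosts, 4 fell and 3 rose in E14Tg2a between days 0 and 8 (median -0.28), where 26.2% of all genes were lower and 32.1% higher. In the clones 6 fell and 3 rose (median -0.32), with 32.1% of all genes lower and 31% higher. The largest changes were rises, of *Rian*, an imprinted host, by 1.82 (SE 0.24, adjusted p = 5.27e-07), and of *Snhg18* by 1.63 (SE 0.23, adjusted p = 1.07e-06) in E14Tg2a. Of 27 protein-coding hosts, 8 fell and 2 rose in E14Tg2a (median -0.14), or 9 fell and none rose after rescaling, led by *Ncl* (-1.15, SE 0.16, adjusted p = 8.48e-07) and *Nop56* (-0.89, SE 0.17, adjusted p = 8.28e-05), nucleolar proteins of ribosome assembly. In the clones 5 fell and 6 rose (median 0.04), or 5 fell and 3 rose after rescaling. From day 0 to day 4, 21 of these 27 rose and 2 fell in the clones (10.1% of all genes higher, 37.2% lower), and 7 rose and 1 fell in E14Tg2a (10.4% higher, 15.9% lower). Examples are *Rps3* (0.52, SE 0.10, adjusted p = 8.59e-05, in the clones) and *Tpt1* (0.51, SE 0.12, adjusted p = 0.000777), whose messages are of the pyrimidine-tract class. The *Tpt1* means in the clones, 2053 TPM on day 0 and 2919 TPM on day 4, were below those of E14Tg2a, at 3868 and 4745 TPM. Of the noncoding hosts, 2 of the 8 described here and 4 of the 13 others rose in the same step. After rescaling the rises in the clones numbered 21 of 27, 4 of 8 and 6 of 13. The shares of all genes in this paragraph are from the fit without rescaling, so they do not stand beside the rescaled counts.

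Factors that act on host transcripts were followed as well. Of 19 genes of nonsense-mediated decay and the exon junction complex, 8 fell and 2 rose in E14Tg2a from day 0 to day 8 (median -0.35), and 10 fell and 3 rose in the clones (median -0.22). *Casc3*, an exon junction protein, rose by 0.78 (SE 0.14, adjusted p = 4.02e-05) in E14Tg2a and by 0.62 (SE 0.10, adjusted p = 7.81e-06) in the clones. Of 8 regulators of pyrimidine-tract messages, 4 fell in E14Tg2a and 3 in the clones, and none rose. For both lists, 26.2% of all genes were lower and 32.1% higher in E14Tg2a, and 32.1% lower and 31% higher in the clones. *Eif4ebp1*, a translation repressor, fell by 0.76 (SE 0.15, adjusted p = 7.85e-05) in E14Tg2a and 0.71 (SE 0.10, adjusted p = 1.4e-06) in the clones.

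**Figure D5:**
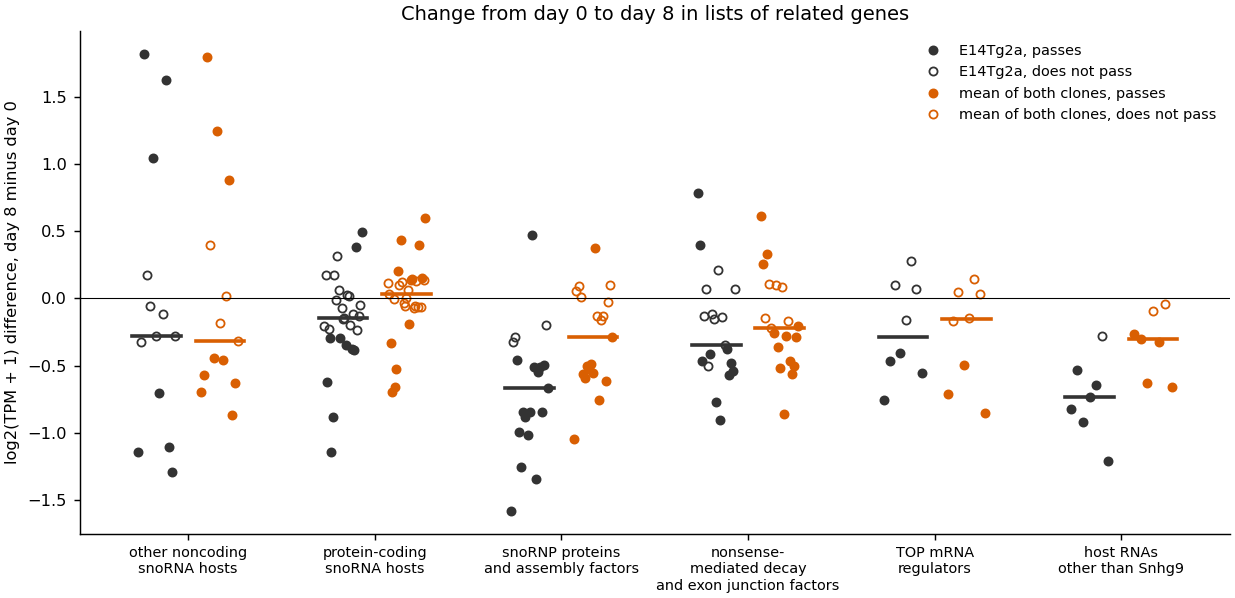
Difference in log2(TPM + 1) between day 8 and day 0 for each listed gene of 5 lists and for the 7 hosts other than *Snhg9*, in E14Tg2a (black) and in the mean of both clones (orange). Filled points passed, open points did not, and bars are medians. The proteins of snoRNA particles (medians -0.67 and -0.28) and the hosts (medians -0.73 and -0.31) lay mostly below 0, and the protein-coding hosts around 0.

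Markers of cell types moved with the same days and lines. The summed level of 7 markers of undifferentiated ES cells in E14Tg2a was 3231 to 3773 TPM on day 0 and 153 to 294 TPM on day 8. On day 8 it was 335 to 884 TPM for ΔK9.1 and 401 to 971 TPM for ΔK9.2. All 7 passed as lower on day 8 than on day 0 in E14Tg2a and in the clones. The 7 primitive and visceral endoderm markers summed on day 8 to 329 to 452 TPM in E14Tg2a, and to 32.2 to 140 TPM and 52.8 to 74.4 TPM in ΔK9.1 and ΔK9.2. In the tests against E14Tg2a, 5 of these 7 were lower in the clones on day 4 (2.4% of all genes were) and 3 of 7 on day 6 (2.72% of all genes were). The 5 mesoderm markers summed on day 8 to 618 to 719 TPM in E14Tg2a, and to 129 to 515 TPM and 275 to 571 TPM in the respective clones. *Hand1* held most of this sum on day 8, with means of 582 TPM in E14Tg2a and 287 TPM in the clones. *T* went the other way, at 16.8 TPM in E14Tg2a and 71.9 TPM in the clones. On the same day, 3 neural ectoderm markers summed to 13.5 to 25.8 TPM in E14Tg2a and 22.8 to 41.4 TPM in the clones. *Nes*, with means of 16.3 and 29.1 TPM, held most of this and rose from day 0 in both. *Sox1* in E14Tg2a (-1.96, SE 0.53) and *Pax6* in the clones (-1.13, SE 0.25) passed as lower than on day 0. The 2 listed trophoblast markers, *Cdx2* and *Eomes*, summed to 38.1 to 118 TPM in E14Tg2a and 49.0 to 192 TPM in the clones. *Elf5* was not listed. In E14Tg2a on day 6, *Eomes* read 104 TPM beside 218 TPM for the mesoderm marker *T*. Which cells carried *Cdx2* and *Eomes* was not tested. The part of these cell types in the changes of the hosts was not tested.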

How the data were processed

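The genes and gene lists were chosen with earlier results of these data known. Poly(A)-selected, strand-specific libraries from mouse E14Tg2a, ΔK9.1 and ΔK9.2 cells were sequenced paired-end by the authors, aligned to mm10 with STAR and counted with strand by RSEM. Versions and the annotation are not given in the sources used here. RSEM gave the deposited TPM. The authors omitted outliers, defined by their distance from the mean on the first component of a principal component analysis, without naming the ones left out. The deposited log2 fold changes and FDR p-values, which the authors obtained from rounded RSEM counts with DESeq2, were not used. RSEM scales a TPM by the effective transcript length, which is short for short transcripts, and TPM keep no depth, so precision was taken from the replicates.

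Groups followed the labels. log2(TPM + 1) was fitted with limma 3.58.1 in R 4.3.3 with an intensity trend, on the 9 day 0 libraries or on all 33, for genes with a group mean of at least 1 TPM. The code was tested on simulated data. Assays, not separate derivations of the lines, are the replicates. Replicate numbers pair the libraries, because the study's methods describe 3 assays in which the lines were differentiated in parallel: deviations from group means correlated with a median r of 0.22 in 33 pairs of the same number and day (31 above 0.1) and -0.13 in 60 pairs of different numbers. The fit without this block is the one reported. The block, another pseudocount, other minimum levels, median ratio rescaling, other libraries in the fit, a size threshold and leaving out each library were the alternatives. Genes named are the 8 hosts, the snoRNA genes inside them, the nearest listed coding gene on either side, the 5 most alike by Pearson's r, and per list the 2 with the largest change that passed, of which some are not reported here. Gene positions came from GENCODE M21 (98.6% of genes matched) and start sequences from RefSeq. Figures were drawn with matplotlib.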

Additional observations from a re-analysis of the deposited data

How the results depend on the processing

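The number of hosts that passed stayed within 1.5 times under pseudocount 0.1, a minimum of 5 TPM or no minimum in every comparison. After median ratio rescaling 1 host passed in E14Tg2a on day 4 against day 0, and 0 between ΔK9.1 and E14Tg2a and between the clones on day 0. Fits on other libraries gave 1 on day 4 against 0 and 3 on day 8 against 6 in E14Tg2a, and 0 between ΔK9.1 and E14Tg2a on day 0. The replicate block gave 2 between the clones on day 0, and the same number of calls as without it in the other comparisons. With a log2 difference above 1 also required, 1 host passed in E14Tg2a on day 8 against 0 and 0 in each of the other comparisons, single clones over time not included. Leaving out 1 library gave 0 to 1 hosts between ΔK9.1 and E14Tg2a on day 0 and in E14Tg2a on day 6 against 4, 1 to 2 on day 4 against 0, 2 to 6 on day 8 against 6 and 6 to 6 on day 8 against 0. In the clones it gave 4 to 5 on day 4 against 0, 2 to 3 on day 6 against 4, 3 to 4 on day 8 against 6 and 4 to 5 on day 8 against 0, and 0 in each of the remaining tests. The day 8 difference of *Snhg9* was 4.00 after rescaling, 5.52 with pseudocount 0.1, and 3.64 to 4.64 without 1 library. That difference led to the choice of the set, so these values describe it and do not test it. For the 33 differences of single hosts that passed, 420 of 505 values under an alternative still passed and 85 no longer did, all in the same direction, and the cause was not tested. Groups of 2 and 3 libraries and unknown depth limit precision, above all for *Snhg9*.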
